A study of Danio rerio with 2 samples.

Results

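The genes of the lysosomal proton pump, proteases and hydrolases were examined in 2 RNA-seq libraries of sorted EGFP+ zebrafish cells. Genes were taken by symbol. The set holds every gene whose symbol starts with *atp6v0*, *atp6v1* or *atp6ap*, every cathepsin gene of the families A, B, C, D, F, H, K, L, O, S and Z, and 15 symbols named singly, among them *lgmn*, *hexa*, *npc1* and *psap*. This gave 60 of the 32520 genes counted, 29201 of which had a symbol. Of the symbols named singly, 13 matched a gene, and *lamp1a* was among those that did not. The gene listed as *lamp1* is therefore not among the 60 and is described beside them. Several paralogs share 1 symbol in the gene names used here and are told apart by their Ensembl identifiers.

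Both populations carried EGFP under an upstream region of *cd8a*. The thymus library came from untreated lymphocytes sorted as lck:mCherry+/CD8:EGFP+ from thymi of fish that the labels put at 6 weeks post fertilization. The melanoma myeloid library came from EGFP+ cells sorted from tumors of Tg(cd8a:EGFP) fish that also carried BRAFV600E, p53null and nacrenull, in which re-introduced *mitfa* gave rise to mosaic tumors. Its labels give the same age and 24 h of SB431542, an inhibitor of TGF-β receptors. For the thymus fish, the paper's methods and a figure legend give older ages that differ from each other. How many fish were pooled is not given in the sources used here. Each population had 1 library, so no difference below has a replicate check or a p-value, and tissue, genotype, drug and cell type cannot be told apart.

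Reads on genes numbered 32975680 for the thymus lymphocytes and 39446435 for the myeloid cells. Each count is given as CPM, its share per 1000000 of these reads, with a 95% Wilson interval of that share. A gene at 1 CPM or more is called expressed. The reads were amplified and carry no molecular identifiers, so all intervals cover counting error only. CPM is not scaled for transcript length and is compared here between the libraries for the same gene, not between genes. The ratio between the libraries has an exact binomial interval, and in counts of genes past a fold 3 reads stood for any lower count. These 3 reads, the limit used for a gene with 0 reads, equal 0.0910 CPM in thymus lymphocytes and 0.0761 CPM in myeloid cells, and the upper end of the Wilson interval at 0 reads is 0.116 and 0.0974 CPM. In RNA from sorted pools, fewer cells of a type and less RNA per cell cannot be told apart.

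The labelled identities were checked against marker genes. All 10 T cell genes looked up were expressed in thymus lymphocytes, summing to 1638 CPM, against 7.20 CPM in the myeloid library, where *lck*, *cd8b*, *cd28* and *cd247* had 0 reads. Of 22 macrophage genes, 13 were expressed in the myeloid library, with a sum of 1517 CPM against 8.07 CPM in thymus lymphocytes. Neutrophil genes summed to 506 CPM in thymus lymphocytes and 832 CPM in myeloid cells, with 3 and 6 of 6 expressed. The thymus sum came mostly from a *lect2* gene (ENSDARG00000090889), at 373 CPM against 108 CPM in myeloid cells, and *mmp9*, at 132 against 440 CPM. In thymus lymphocytes *lyz* and *mmp13a* had 0 reads and *npsn* 1 read, against 298, 7053 and 1152 reads in myeloid cells. Melanocyte genes summed to 24655 CPM in the library labelled myeloid, against 1.33 CPM in the other library. There 9 of 10 were expressed, led by a *tyrp1* gene (ENSDARG00000056151) at 16778 CPM, and *oca2* had 0 reads. The melanocyte and macrophage sums are of different genes and do not give the relative amounts of these cells. Pigment cells build melanosomes, organelles related to lysosomes, and their part in the differences below was not tested. The name myeloid cells below stands for this library as labelled. Of skin ionocytes, which are rich in the proton pump, 1 of 7 marker genes was expressed in the myeloid library, the list summed to 4.74 CPM, and *foxi3a*, *foxi3b* and *ca15a* had 0 reads. Keratinocyte genes summed to 234 CPM there, with *cdh1* alone at 142 CPM, and to 36.5 CPM in thymus lymphocytes. *tp63* went the other way, at 32.6 CPM in thymus lymphocytes and 0.761 CPM in myeloid cells, and *krt91* had 0 reads in both libraries. The B cell list came to 31.4 CPM in myeloid cells against 11.3 CPM in thymus lymphocytes. Of that list, *cd79a* and *pax5* had 0 reads in myeloid cells. The erythrocyte sum of 18.6 CPM in myeloid cells came from *hbaa1*, and *hbaa2* had 0 reads there. Fibroblast and endothelial genes were all under 1 CPM.

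Lysosomes are acidic organelles that break down material delivered by endocytosis, phagocytosis and autophagy. Their lumen is acidified by the vacuolar proton pump, in which the cytosolic V1 sector hydrolyses ATP and the membrane-bound V0 sector carries protons. Cathepsins, legumain and other hydrolases work at this low pH, and in phagocytes the same enzymes degrade engulfed cells and trim antigens and the invariant chain for presentation on MHC class II.

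Most of these genes were higher in the melanoma myeloid library. Of the 60 genes, 46 were expressed in thymus lymphocytes and 47 in myeloid cells. Of all 32520 genes counted, 12932 were expressed in thymus lymphocytes and 10719 in myeloid cells. Together the 60 genes took 0.539% of the reads on genes in thymus lymphocytes, or 5386 CPM (5361 to 5411), and 1.79% in myeloid cells, or 17931 CPM (17889.7 to 17973). The summed level was thus 3.33-fold (3.31 to 3.35) higher in the myeloid library. *lgmn* and *ctsd*, which had the most reads of the set there, made up 28.1% of its reads in myeloid cells and 5.39% in thymus lymphocytes. Without both genes the summed level was 2.53-fold higher.

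Counted gene by gene, 50 of the 60 genes were expressed in either library and could be compared. Of these 50, 35, or 70%, were higher in the myeloid library by 2-fold or more, against 30.0% of all 15139 genes expressed in either library. Another 6, or 12%, were lower by 2-fold or more, against 48.0% of all genes, and 9 lay within 2-fold. The other 10 of the 60 were under 1 CPM in both libraries and could not be compared. With a limit of 4-fold, 24 were higher and 5 lower, against 21.9% and 39.2% of all genes. Of the 35, 4 were expressed in myeloid cells only, and 3 of the 6 in thymus lymphocytes only. Of all 15139 genes, 2207 were expressed in myeloid cells only and 4420 in thymus lymphocytes only. Such genes passed the filter through the library in which they were high. Among the 43 genes expressed in both libraries, 31 were higher and 3 lower, against 27.8% and 34.0% of the 8512 genes expressed in both. With 10 CPM in either library as the minimum, 34 members were higher and 5 lower, against 30.0% and 43.7% of all genes. The median log2 ratio of the 50 genes that could be compared, with 1 CPM added to both levels, was 1.67, and over all 15139 genes it was −0.73. Of the 22 pump genes that could be compared, none was lower by 2-fold, whereas the glycosidases and the lipid-handling genes were split between both directions.

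**Figure D1:**
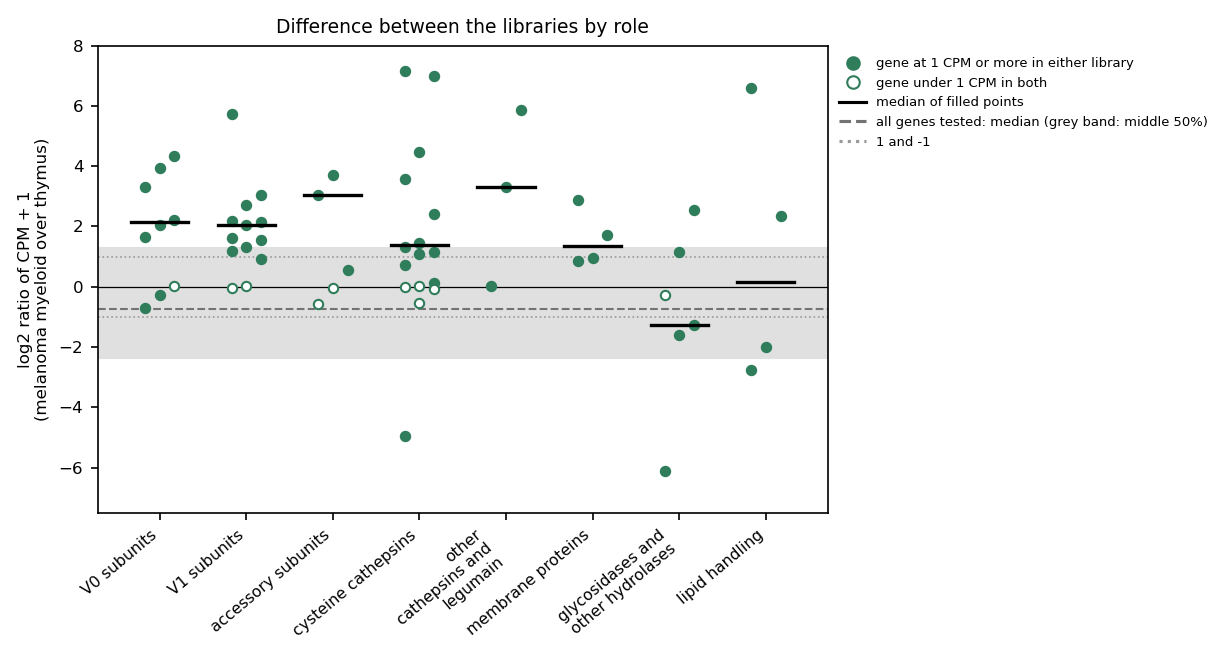
Log2 ratio of CPM plus 1, melanoma myeloid over thymus library, for each of the 60 genes (points, open where under 1 CPM in both) by role, with black bars at the medians of the filled points and the dashed line and grey band at the median, −0.73, and the middle 50% of all genes. The V0, V1 and accessory medians of 2.14, 2.03 and 3.03 lie above the band, and the glycosidases and other hydrolases spread to both sides of 0.

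The proton pump genes mostly lay on one side. The 27 genes summed to 1245 CPM (1233 to 1257) in thymus lymphocytes and 6483 CPM (6458 to 6508) in myeloid cells, a 5.21-fold (5.15 to 5.26) higher level. Of the 22 that could be compared, 18 were higher in the myeloid library by 2-fold or more and 4 lay within 2-fold, where 30.0% of all genes were higher and 48.0% lower.

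In the V1 sector, 10 of the 11 genes that could be compared were higher by 2-fold or more, against 30.0% of all genes. The catalytic A subunit is encoded by a pair of genes listed as *atp6v1a*. ENSDARG00000034534 had 4782 reads in thymus lymphocytes and 12996 in myeloid cells, or 145 and 329 CPM, a 2.27-fold (2.198 to 2.35) difference. ENSDARG00000076318 was at 14.6 and 126 CPM, an 8.67-fold (7.89 to 9.54) difference. Both A subunit genes were thus higher in the myeloid library, by unequal factors. The nucleotide-binding B subunit came from 1 of 2 *atp6v1b2* genes, ENSDARG00000013443, at 136 and 421 CPM, or 3.08-fold (2.98 to 3.19) higher. Its partner ENSDARG00000043465 had 1 read in thymus lymphocytes and 0 in myeloid cells.

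Other subunits of this sector build its rotor and stalks. *atp6v1g1*, of the peripheral stalk, was at 53.2 CPM in thymus lymphocytes and 242 CPM in myeloid cells, a 4.56-fold (4.33 to 4.80) difference. *atp6v1h*, the regulatory H subunit, was at 90.6 and 405 CPM, or 4.47-fold (4.30 to 4.65) higher. The intervals of both ratios overlap. *atp6v1f*, of the rotor, was at 10.6 and 46.3 CPM, 4.38-fold (3.90 to 4.92) higher. *atp6v1d*, also of the rotor, was at 7.19 and 23.2 CPM, 3.23-fold (2.79 to 3.74) higher. The peripheral stalk subunit E has 2 genes here. *atp6v1e1b* was 6.62-fold (6.26 to 7.01) higher, at 41.3 and 273 CPM. *atp6v1e1a*, at 25.5 and 48.8 CPM, was 1.91-fold (1.76 to 2.07) higher and was the V1 gene within 2-fold.

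The C subunit, which joins the sectors and is released when the pump is taken apart, showed the widest gap of the V1 genes. One *atp6v1c1* gene, ENSDARG00000035880, had 93 reads in thymus lymphocytes and 7923 in myeloid cells, or 2.82 and 201 CPM, a 71.2-fold (58.1 to 88.3) difference. The other, ENSDARG00000023967, was at 87.2 and 219 CPM, 2.51-fold (2.41 to 2.62) higher. Another C subunit gene, *atp6v1c2*, had 0 reads and 1 read.

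**Figure D2:**
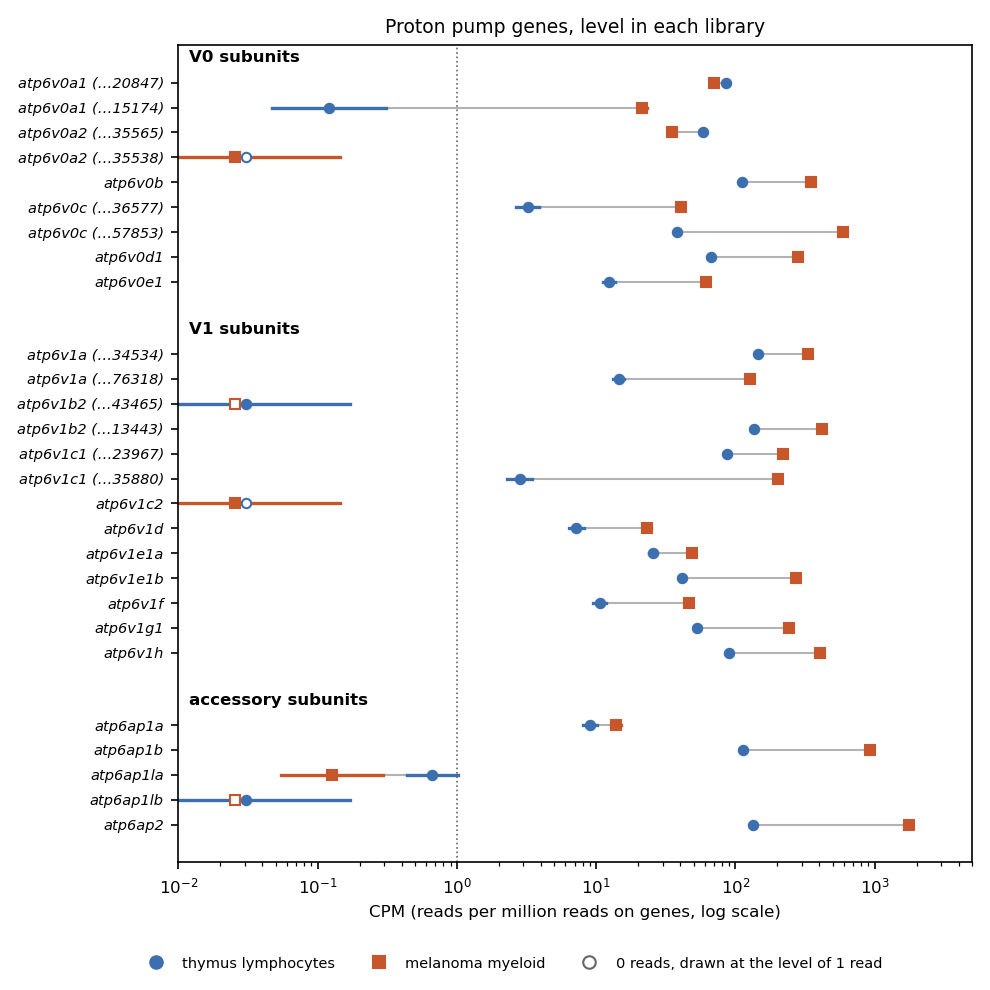
Level of each of the 27 proton pump genes in the thymus (circles) and melanoma myeloid library (squares), in CPM on a log axis, with 95% Wilson intervals as coloured bars where wider than the symbol; the dotted line marks 1 CPM, open symbols have 0 reads and digits in brackets end the Ensembl identifier of genes that share a symbol. Of the 22 genes above the line in either library, 20 lie further right in the myeloid library, the exceptions being 1 *atp6v0a1* (ENSDARG00000020847) and 1 *atp6v0a2* gene (ENSDARG00000035565). Of all 15139 genes expressed in either library, 6224 had a ratio above 1 and 8915 below.

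In the V0 sector, 6 of 8 genes were higher by 2-fold or more, again against 30.0% of all genes. The ring that carries protons contains the c subunit. One *atp6v0c* gene, ENSDARG00000057853, had 1257 reads in thymus lymphocytes and 23436 in myeloid cells, or 38.1 and 594 CPM, a 15.6-fold (14.7 to 16.5) difference. The other *atp6v0c* gene, ENSDARG00000036577, was at 3.21 and 40.4 CPM, 12.6-fold (10.3 to 15.4) higher. The intervals of both ratios overlap. *atp6v0b*, which encodes another ring subunit, was at 111 and 349 CPM, or 3.14-fold (3.02 to 3.25) higher. *atp6v0d1*, which couples the ring to the V1 rotor, was at 66.7 and 281 CPM, 4.21-fold (4.02 to 4.41) higher. *atp6v0e1*, a small membrane subunit, was at 12.3 and 61.2 CPM, 4.98-fold (4.48 to 5.55) higher.

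The large membrane subunit a directs the pump to particular compartments in mammals, and its genes did not go together. The *atp6v0a1* gene with most reads, ENSDARG00000020847, was at 84.9 CPM (81.9 to 88.1) in thymus lymphocytes and 70.6 CPM (68.0 to 73.2) in myeloid cells. Its ratio of 0.831 became 1.24 with TMM and 1.20 with DESeq2 scaling of the libraries, so no direction is given for it. The second *atp6v0a1* gene, ENSDARG00000015174, had 4 reads in thymus lymphocytes and 848 in myeloid cells, or 0.121 and 21.5 CPM, a ratio of 177 with a counting interval of 69.0 to 652. *atp6v0a2* (ENSDARG00000035565) was at 58.2 and 35.0 CPM, 1.67-fold (1.55 to 1.79) lower. Its log2 ratio of −0.74 became −0.15 with TMM and −0.20 with DESeq2 scaling. The other *atp6v0a2* gene, ENSDARG00000035538, had 0 reads and 1 read. Summed over the pair, *atp6v0a1* was at 85.1 and 92.1 CPM.

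Of the accessory subunits, *atp6ap2*, also known as the prorenin receptor, had 4389 reads in thymus lymphocytes and 69142 in myeloid cells. This is 133 CPM (129 to 137) and 1753 CPM (1739.8 to 1766), a 13.2-fold (12.8 to 13.6) difference. *atp6ap1b*, one of the genes for the Ac45 subunit, was at 113 and 928 CPM, 8.22-fold (7.95 to 8.50) higher. Its paralog *atp6ap1a* lay within 2-fold at 9.07 and 13.8 CPM, 1.52-fold (1.32 to 1.76) higher. The related *atp6ap1la*, with 22 and 5 reads, and *atp6ap1lb*, with 1 and 0, were under 1 CPM in both libraries.

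The division of reads within pairs of paralogs differed between the libraries. The share taken by 1 gene of a pair also depends on transcript length, so it is read only between libraries. The gene shown is the one with the higher ratio of myeloid over thymus. Its share is therefore larger in myeloid cells by this choice, and only the size of the change is read. ENSDARG00000035880 took 3.13% (2.56 to 3.82) of the *atp6v1c1* reads in thymus lymphocytes and 47.8% (47.1 to 48.6) in myeloid cells. ENSDARG00000015174 took 0.143% (0.0555 to 0.366) and 23.3% (22.0 to 24.8) of the *atp6v0a1* reads. ENSDARG00000076318 took 9.12% (8.37 to 9.93) and 27.7% (27.1 to 28.4) of the *atp6v1a* reads. In each of these pairs the gene shown had the smaller share in both libraries. *atp6v1e1b* took 61.8% (59.7 to 63.8) and 84.8% (84.2 to 85.5) of its pair, and *atp6ap1b* 92.6% (91.7 to 93.3) and 98.5% (98.4 to 98.7). The *atp6v0c* pair was divided almost alike, with 92.2% (90.7 to 93.5) and 93.6% (93.3 to 93.9) on ENSDARG00000057853. How similar the paralogs are in sequence, and so how many of their reads could not be assigned to 1 gene, was not tested.

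**Figure D3:**
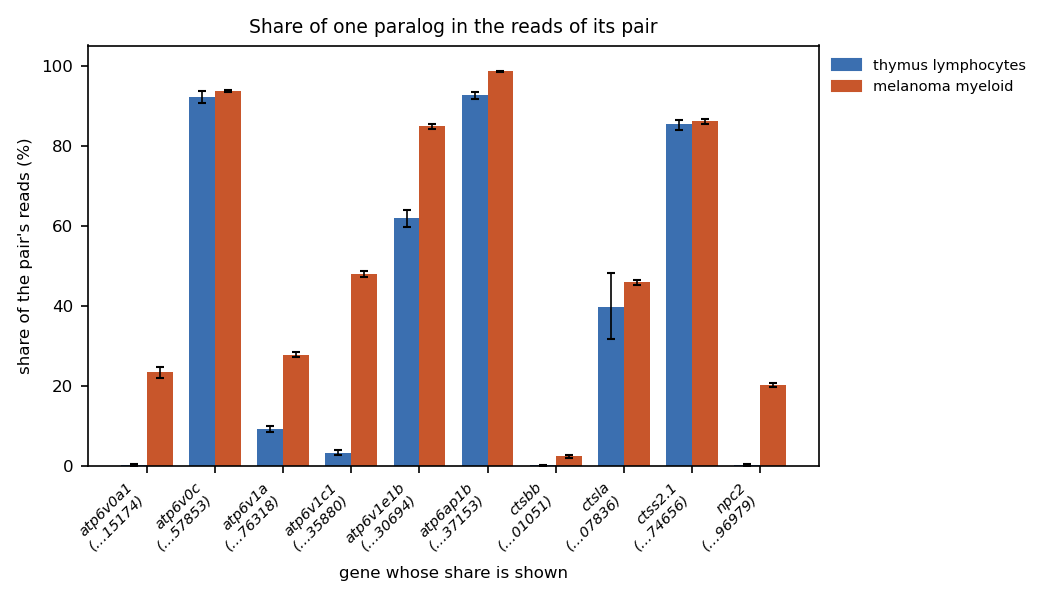
Share of 1 paralog in the reads of its pair (%), in the thymus (blue) and melanoma myeloid library (orange), with 95% Wilson intervals as error bars. The paralog shown is the one with the higher ratio of myeloid over thymus, so its share is larger in the myeloid library by this choice. The shares of *atp6v1c1* (ENSDARG00000035880), 3.13% and 47.8%, and of *npc2* (ENSDARG00000096979), 0.144% and 20.1%, differ between the libraries, and those of *ctss2.1*, 85.3% and 86.0%, lie close together.

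The cathepsins and legumain held both wide gaps and near-equal levels. Legumain, *lgmn*, an asparaginyl endopeptidase that processes cathepsins, had 1432 reads in thymus lymphocytes and 102735 in myeloid cells. This is 43.4 CPM (41.2 to 45.7) and 2604 CPM (2589 to 2620.4), a 60.0-fold (56.9 to 63.2) difference. The aspartic protease cathepsin D, *ctsd*, had 8142 and 95706 reads, or 247 and 2426 CPM, a 9.83-fold (9.61 to 10.1) difference. The serine carboxypeptidase cathepsin A, *ctsa*, which in mammals also protects other lysosomal enzymes, was at 128 CPM (124 to 132) and 129.9 CPM (126 to 134). Its ratio was 1.02 (0.976 to 1.06), a log2 ratio of 0.024 that became 0.61 with TMM and 0.56 with DESeq2 scaling.

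The 16 cysteine cathepsin genes summed to 724 CPM (715 to 733) in thymus lymphocytes and 2317 CPM (2302 to 2332) in myeloid cells. Of the 12 that could be compared, 9 were higher in the myeloid library by 2-fold or more, 2 lay within 2-fold and 1 was lower, against 30.0% higher and 48.0% lower among all genes. Cathepsin L is an endopeptidase with a broad substrate range. *ctsl.1* had 79 reads in thymus lymphocytes and 17090 in myeloid cells, or 2.40 and 433 CPM, a 181-fold (145 to 229) difference. *ctsla* had 52 and 14434 reads, or 1.58 and 366 CPM, a 232-fold (177 to 311) difference. Both genes were near the limit of 1 CPM in thymus lymphocytes. The other genes named for cathepsin L had few reads: *ctslb*, known as a hatching gland gene, had 0 in both libraries, *ctslb.4* had 0 and 1, and *ctsll* had 3 and 1.

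Cathepsin K, *ctsk*, a collagen-degrading enzyme best known from osteoclasts, had 2 reads in thymus lymphocytes and 894 in myeloid cells, or 0.0607 and 22.7 CPM, a ratio of 374 with a counting interval of 103 to 3090.3. Of the 2 osteoclast markers that matched, *ocstamp*, a gene of osteoclast and macrophage fusion, was at 102 CPM in myeloid cells, where *calcr* had 0 reads. *ctsbb*, one of the cathepsin B genes, had 3 and 189 reads, or 0.0910 and 4.79 CPM, a ratio of 52.7 with a counting interval of 17.7 to 258. *ctsk* and *ctsbb* are the 2 of 47 members expressed in myeloid cells that had 3 reads or fewer in thymus lymphocytes, against 11.1% of all 10719 genes expressed there. Of genes at 10 CPM or more in myeloid cells, these were 1 of 46 members and 6.87% of all genes.

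Other cysteine cathepsins were expressed well in both libraries. Cathepsin Z, *ctsz*, a carboxypeptidase, was at 29.2 CPM (27.4 to 31.1) and 355 CPM (349.6 to 361), a 12.2-fold (11.4 to 13.0) difference. Cathepsin S processes the invariant chain in mammalian antigen-presenting cells. *ctss2.1* was at 80.4 and 219.7 CPM, 2.73-fold (2.62 to 2.86) higher in the myeloid library, and *ctss2.2* at 13.9 and 35.7 CPM, 2.57-fold (2.31 to 2.86) higher. *ctss1* had 15 reads in thymus lymphocytes and 0 in myeloid cells and was under 1 CPM in both. The intervals of the *ctss2.1* and *ctss2.2* ratios overlap. *ctsb*, the main cathepsin B gene, was at 90.2 and 202 CPM, 2.24-fold (2.14 to 2.33) higher, and *ctsf* at 96.8 and 207 CPM, 2.13-fold (2.05 to 2.22) higher.

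Cathepsins H and C lay within 2-fold. *ctsh*, an aminopeptidase, was at 99.4 CPM in thymus lymphocytes and 165 CPM in myeloid cells, a 1.66-fold (1.59 to 1.73) difference. *ctsc*, a dipeptidyl peptidase that in mammals activates the granzymes of cytotoxic lymphocytes and the serine proteases of neutrophils, was at 279 CPM (273 to 285) and 306 CPM (301 to 312), a ratio of 1.098 (1.07 to 1.13). Cathepsin O, *ctso*, was the cysteine cathepsin that was lower in the myeloid library. It had 1007 reads in thymus lymphocytes, or 30.5 CPM (28.7 to 32.5), and 1 read in myeloid cells, 1205-fold lower with a counting interval of 216 to 47626.

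**Figure D4:**
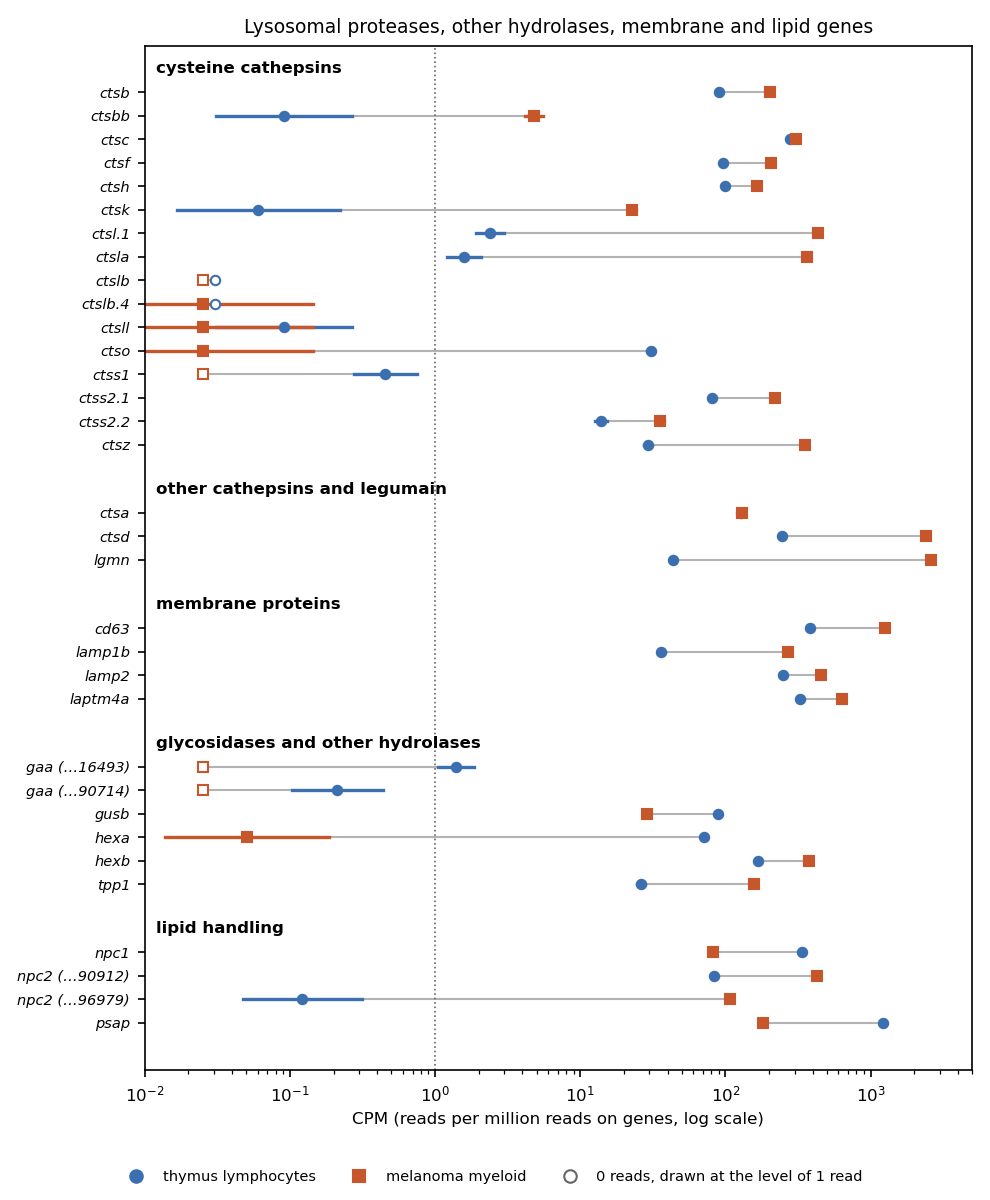
Level of each of the other 33 genes in the thymus (circles) and melanoma myeloid library (squares), in CPM on a log axis, with 95% Wilson intervals as coloured bars where wider than the symbol; the dotted line marks 1 CPM, open symbols have 0 reads and digits in brackets end the Ensembl identifier. *lgmn*, *ctsl.1*, *ctsla*, *ctsk* and 1 *npc2* gene lie far to the right in the myeloid library, and *hexa*, *ctso*, *npc1* and *psap* lie further right in the thymus library.

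The membrane proteins had many reads in both libraries. *lamp1b*, a coat protein of the lysosomal membrane, was at 36.2 CPM (34.2 to 38.3) in thymus lymphocytes and 269 CPM (264 to 275) in myeloid cells, a 7.45-fold (7.02 to 7.91) difference. The related *lamp2* was at 249.8 and 456 CPM, or 1.83-fold (1.78 to 1.87) higher. The gene listed as *lamp1* (ENSDARG00000100181), outside the set, was at 2.88 and 2.56 CPM, a ratio of 0.889 (0.665 to 1.19). The tetraspanin gene *cd63*, whose product is found in late endosomes and melanosomes, was at 383 and 1250.1 CPM, a 3.26-fold (3.197 to 3.32) difference. *laptm4a*, of the late endosomal membrane, was at 326 and 637 CPM, 1.95-fold (1.91 to 1.996) higher.

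The glycosidases and other hydrolases did not go together. Of 5 that could be compared, 2 were higher in the myeloid library by 2-fold or more and 3 lower. With 5 genes, these shares of 40% and 60% cannot be set apart from the 30.0% and 48.0% of all genes. Their median log2 ratio of −1.26 was that of a *gaa* gene with few reads, and it was −0.22 for genes at 10 CPM or more and −0.77 without a filter. The β-hexosaminidase subunits *hexa* and *hexb*, which together degrade the ganglioside GM2 in mammals, lay on opposite sides. *hexb* had 5552 reads in thymus lymphocytes and 14819 in myeloid cells, or 168 and 376 CPM, 2.23-fold (2.16 to 2.30) higher. *hexa* had 2362 reads in thymus lymphocytes, or 71.6 CPM (68.8 to 74.6), and 2 reads in myeloid cells, 1413-fold lower with a counting interval of 391 to 11672. β-glucuronidase, *gusb*, was at 88.9 and 28.6 CPM, 3.10-fold (2.89 to 3.33) lower in the myeloid library. The acid glucosidase genes listed as *gaa* had 46 reads (ENSDARG00000116493) and 7 reads (ENSDARG00000090714) in thymus lymphocytes and 0 reads each in myeloid cells. The first, at 1.39 CPM, was in the myeloid library at least 18.3-fold lower when 3 reads stand for 0, with 14.3-fold as the lower end of the exact interval. The serine tripeptidyl peptidase *tpp1* was at 26.3 and 157 CPM, 5.99-fold (5.58 to 6.44) higher in the myeloid library.

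*ctso*, *hexa* and 1 *gaa* gene are the 3 of 46 members expressed in thymus lymphocytes that had at most 3 reads in myeloid cells, against 25.1% of all 12932 genes expressed there. Among genes at 10 CPM or more in thymus lymphocytes, these were 2 of 39 members and 16.0% of all genes. The libraries were made from 1 ng of RNA, and the part of transcripts lost in amplification was not tested.

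The genes that handle lipids were split. Prosaposin, *psap*, the precursor of the saposins that present sphingolipids to their hydrolases, had 40475 reads in thymus lymphocytes and 7118 in myeloid cells. This is 1227 CPM (1216 to 1239) and 180.4 CPM (176 to 185), a 6.802-fold (6.63 to 6.98) lower level in the myeloid library. *npc1*, the membrane transporter that exports cholesterol from the lysosome, was likewise lower, with 11037 and 3250 reads, or 335 and 82.4 CPM, a 4.06-fold (3.91 to 4.23) difference. *npc2*, whose soluble product hands cholesterol to Npc1, went the other way in both of its genes. ENSDARG00000090912 was at 83.9 and 427 CPM, 5.09-fold (4.89 to 5.30) higher. ENSDARG00000096979 had 4 and 4239 reads, or 0.121 and 107 CPM, a ratio of 886 with a counting interval of 346 to 3253. This was the highest ratio of the set.

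The comparison was extended to other lysosomal genes. Of 81 symbols, 64 matched and gave 67 genes outside the set, 64 of which were expressed in either library. Of these, 24 were higher in the myeloid library by 2-fold or more, 20 were lower and 20 lay within 2-fold, against 30.0% higher and 48.0% lower among all genes. The median of their log2 ratios, computed as above, was 0.35, where that of all genes was −0.73. The list's hydrolases include the cytosolic dipeptidase *pepd* and the sorting adaptor *gga1*, which are not lysosomal enzymes.

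Several of these genes were far higher in the myeloid library. Acid lipase, *lipa*, which frees cholesterol from its esters in the lysosome, had 88 and 4765 reads, or 2.67 and 121 CPM, a 45.3-fold (36.7 to 56.5) difference. The cystatins inhibit cysteine cathepsins. *cst3* was at 18.5 and 597 CPM, 32.3-fold (29.8 to 35.0) higher, and *cst14b.1* at 14.2 and 381 CPM, 26.8-fold (24.4 to 29.4) higher. *cst14b.2* had 0 reads in thymus lymphocytes and 112 in myeloid cells, at least 31.2-fold higher when 3 reads stand for 0, with 24.97-fold as the lower end of the exact interval. Of the 5 cystatin genes, 3 were higher by 2-fold or more and 1 lower, against 30.0% and 48.0% of all genes. Among the higher ones, *cst14b.2* was expressed in myeloid cells only, at 2.84 CPM, and passed the filter through that library. *cst14a.2*, at 47.4 and 93.5 CPM, lay within 2-fold and *cst14a.1*, at 15.1 and 4.66 CPM, was lower. *tfeb*, a transcription factor that in mammals drives lysosomal genes, had 4 and 291 reads, or 0.121 and 7.38 CPM, a ratio of 60.8 with a counting interval of 23.5 to 225. Its relative *tfe3b* had 1135 reads in thymus lymphocytes, or 34.4 CPM, and 0 in myeloid cells, at least 453-fold lower when 3 reads stand for 0, with 367-fold as the lower end of the exact interval. The regulators that matched thus lay on opposite sides.

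Among the 13 glycosidases outside the set, 7 were lower in the myeloid library by 2-fold or more and 2 higher. The share lower, 53.8%, is near the 48.0% of all genes, and with TMM 6 were lower. The share higher was 15.4%, beside 30.0% of all genes. It includes a *hyal2* gene (ENSDARG00000059931) with 0 reads in thymus lymphocytes and 43 in myeloid cells, which passed the filter through that library. β-galactosidase, *glb1*, had 3139 reads in thymus lymphocytes and 1 in myeloid cells, 3755-fold lower with a counting interval of 673 to 148360. α-L-iduronidase, *idua*, had 322 and 1 reads, 385-fold lower with a counting interval of 68.6 to 15261. Of the 7 genes that dock mTORC1 at the lysosome, 4 were higher by 2-fold or more and 3 lower, against 30.0% and 48.0% of all genes. Their median log2 ratio was 1.54. Among the lower ones, the Rag GTPase gene *rragca* had 731 and 2 reads, 437-fold lower with a counting interval of 121 to 3617. Of the 7 sorting genes, which include those that carry hydrolases to the lysosome, 4 were lower by 2-fold or more and 2 higher, shares of 57.1% and 28.6% that lie near the 48.0% and 30.0% of all genes. The mannose 6-phosphate receptor *m6pr* was at 119 and 17.7 CPM, 6.70-fold (6.18 to 7.28) lower. The second such receptor, *igf2r*, was at 79.9 and 1.04 CPM, 76.9-fold (56.5 to 107) lower.

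**Figure D5:**
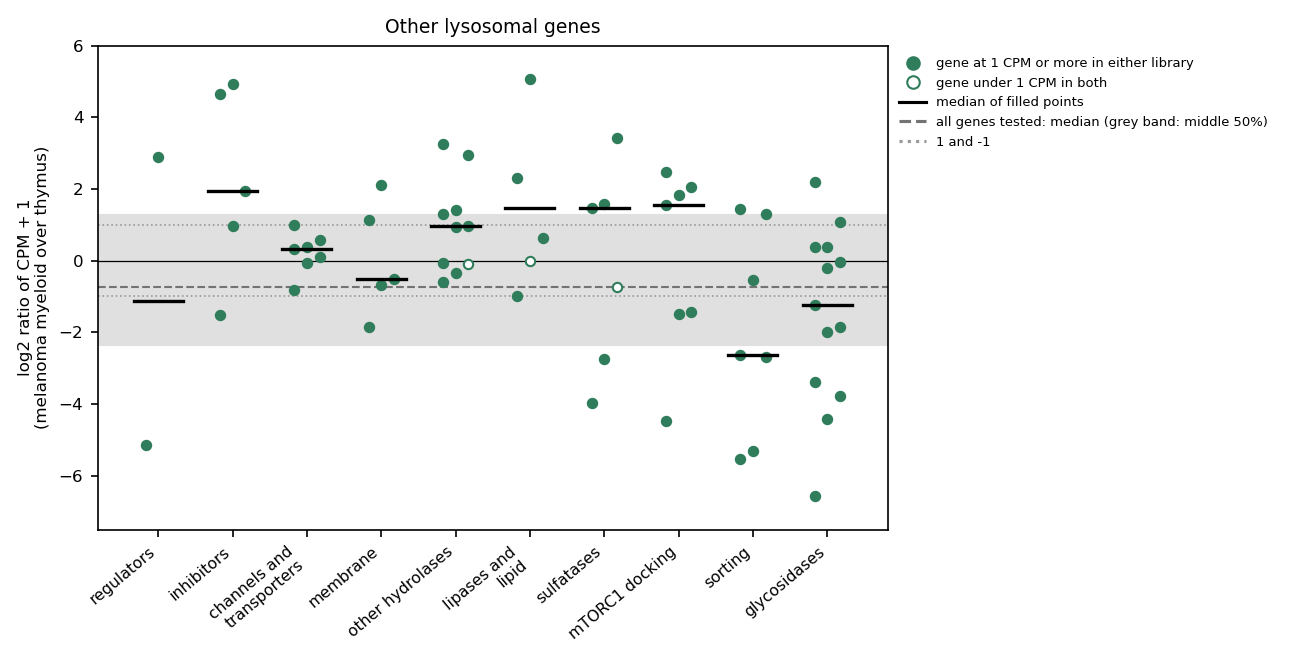
Log2 ratio of CPM plus 1, melanoma myeloid over thymus library, for 67 other lysosomal genes (points, open where under 1 CPM in both) by role, with black bars at the medians of the filled points and the dashed line and grey band at the median, −0.73, and the middle 50% of all genes. The medians of the inhibitors, 1.94, the mTORC1 docking genes, 1.54, the sulfatases, 1.47, and the lipases and lipid genes, 1.47, lie above the band. Those of the regulators, −1.12, the glycosidases, −1.25, and the sorting genes, −2.64, lie below the dashed line. The groups are small and mixed. By 2-fold or more, 3 of 5 sulfatases compared were higher and 2 lower, and 2 of 4 lipases and lipid genes higher and 1 lower. The regulators compared were 2 genes, 1 higher and 1 lower. Of all genes 30.0% were higher and 48.0% lower.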

How the data were processed

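RNA was sequenced from 1 library of sorted EGFP+ thymus lymphocytes and 1 of sorted EGFP+ melanoma myeloid cells, each from 1 ng of RNA amplified with a SMART-Seq kit. The authors deposited unnormalized counts per Ensembl gene. The submitters' processing notes name cutadapt, STAR, HTSeq and GRCz11, whereas the paper's methods name TopHat, GRCz10 and Cufflinks. Counting options are not given in the sources used here. Reads not assigned to a gene, 13095168 or 28.4% of the thymus table's total, were left out. Of these, 6966482 had no unique alignment and may lie on genes. The myeloid table has no rows of either kind.

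CPM, Wilson intervals and exact binomial intervals of ratios were computed in Python 3.11.15 (numpy 2.4.6, pandas 2.3.3, scipy 1.17.1), checked on simulated counts and plotted with matplotlib 3.10.9. No test was run, because each population had 1 library. Genes that reached 1 CPM in either population were compared, with 2-fold as limit. Symbols came from a table of gene names. Values are given for the members, and of the other lysosomal genes for the 4 with the highest ratio in each direction, the cystatins, *tfeb* and *tfe3b*. *lamp1*, *m6pr* and *igf2r* were chosen after their values were seen. Alternatives used library sizes from edgeR 4.0.16 (TMM) and DESeq2 1.42.0 in R 4.3.3, sums that leave out the 10 top genes, and other thresholds, pseudocounts and filters. The members and lists were chosen with earlier results of these data known. Sequences and promoter motifs were not analysed here, and 1 item is not reported here.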

Additional observations from a re-analysis of the deposited data

How the results depend on the processing

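No paired analysis was possible because each population had 1 library, so no replicate could be left out either. The numbers of genes higher and lower by 2-fold, 35 and 6, were 40 and 6 with TMM and the same with DESeq2 size factors, 30 and 6 with genes of 1 symbol summed, and 35 and 9 without a filter on low counts. Of all genes, 37.0% and 41.5% were higher and lower with TMM and 36.3% and 42.1% with DESeq2. For summed symbols and for no filter the share of all genes was not computed, so those counts cannot be set against it. The genes that became higher by 2-fold with TMM and with DESeq2 were *atp6ap1a*, *atp6v1e1a*, *ctsh*, *lamp2* and *laptm4a*. All 35 higher and 6 lower genes kept these calls with TMM, with DESeq2 and with library sizes that leave out the 10 top genes. These scalings moved the median log2 ratio of all genes by 0.53, 0.49 and 0.059. In the same order the median of the set, 1.67, became 2.25, 2.21 and 1.75, and that of the other lysosomal genes, 0.35, became 0.90, 0.86 and 0.43. The summed level of the set became 4401, 4472 and 5787 CPM in thymus lymphocytes and 21944, 21592 and 20345 CPM in myeloid cells. Without a filter the medians were 1.31 and 0.095, since genes with few reads in both libraries then enter them. Of 159 ratios of single members under the 3 scalings, 115 moved beyond the counting interval. The counts of other lysosomal genes, 24 higher and 20 lower, became 29 and 17 with TMM.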

Other observations

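Further lists, chosen after the values above were seen, cover the assembly of the pump, with 10 genes, and autophagy, which delivers cytoplasm to the lysosome, with 19. Of the assembly genes, 3 were higher in the myeloid library by 2-fold or more and 5 lower. These shares of 30% and 50% lie near the 30.0% and 48.0% of all genes. *tmem199*, at 13.5 and 48.0 CPM, and *ccdc115*, at 29.2 and 102 CPM, whose products help assemble the pump in mammals, were 3.55-fold (3.202 to 3.95) and 3.51-fold (3.27 to 3.77) higher. *vma21*, another assembly factor, lay within 2-fold at 121 and 197 CPM. The rabconnectin genes, whose products help V1 join V0, did not go together. *dmxl2* was 5.97-fold (5.20 to 6.88) higher, at 7.04 and 42.0 CPM. *dmxl1*, with 210 and 5 reads, and *wdr7*, with 479 and 13 reads, were 50.2-fold (21.2 to 156) and 44.1-fold (25.5 to 83.4) lower. The other lower genes of this list were *oxr1a*, with 725 reads and 1 read, *ncoa7a*, with 90 and 1, and *ncoa7b*, with 65 and 0.

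Of the 18 autophagy genes expressed in either library, 5 were higher by 2-fold or more, 8 lower and 5 within 2-fold. Shares of 27.8% higher and 44.4% lower lie near the 30.0% and 48.0% of all genes. The cargo receptor gene *sqstm1* had 1542 reads in thymus lymphocytes and 44992 in myeloid cells, or 46.8 and 1141 CPM, a 24.4-fold (23.2 to 25.7) difference. *map1lc3a*, one of the LC3 genes, was 10.6-fold (10.15 to 11.2) higher, at 57.3 and 609.6 CPM, whereas *map1lc3b*, at 625 and 648 CPM, had a ratio of 1.04 (1.02 to 1.06). Of the kinase genes that start autophagy, *ulk1a* had 2899 reads in thymus lymphocytes and 1 in myeloid cells, and *ulk1* had 886 and 1. *atg9a*, for a membrane protein of the forming autophagosome, had 3056 and 16 reads. The other genes higher by 2-fold or more were *gabarapl2*, *atg12* and *atg3*. The others lower were *atg16l1*, *wipi2*, and *rubcn*, *uvrag* and *wipi1*, the last 3 with 1 or 2 reads in myeloid cells. Of all genes at 10 CPM or more in thymus lymphocytes, 16.0% had 3 reads or fewer in myeloid cells. The part of lost transcripts in these low counts was not tested.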
